A study of Homo sapiens with 10 samples.

Results

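The genes of the proteasome were followed in 2 human pancreatic ductal adenocarcinoma lines, CFPAC-1 and PANC-1, with and without imidazole ketone erastin (IKE). IKE is an erastin derivative that blocks cystine import and is used to induce ferroptosis, a form of cell death driven by iron and oxidised lipids. A gene was included when its symbol was PSMA, PSMB, PSMC, PSMD, PSME, PSMF or PSMG followed by a number alone, and 2 genes that match were left out and are not reported here. The rule found 46 of the 20289 genes in the table: 8 alpha and 7 standard beta genes of the core particle, 4 inducible or tissue-specific beta genes, 5 ATPases and 10 other subunits of the regulatory particle, 5 activators or inhibitors, and 7 assembly chaperones. Levels are FPKM, sequenced fragments scaled to gene length and to library size, which can be compared between genes. CFPAC-1 cultures received 10 µM IKE (2 libraries) and PANC-1 cultures 1 µM IKE (4 libraries), each for 24 h, and each line had 2 control libraries with 0.1% DMSO, the solvent. Dead cells were removed before RNA was taken, so all values describe surviving cells. The labels name the replicates as biological without saying what separates them, and a p-value here can speak only to the spread between these libraries, which may be technical. In RNA from a whole culture, fewer cells of one kind and less RNA per cell cannot be told apart.

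The proteasome degrades proteins marked with ubiquitin. Its barrel-shaped core particle (20S) has outer alpha rings, which gate the entrance, and inner beta rings, of which the beta subunits PSMB5, PSMB6 and PSMB7 cut peptide bonds. The regulatory particle (19S) recognises ubiquitin, unfolds the substrate with a ring of ATPases and feeds it into the core. Interferon signalling replaces the cutting subunits with PSMB8, PSMB9 and PSMB10 and raises the activator PA28, made of PSME1 and PSME2. The resulting immunoproteasome supplies peptides for MHC class I presentation. Genes of the standard particle are known to rise together through the transcription factor NFE2L1 when proteasome capacity falls short.

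Of the 46 genes, 44 had at least 1 FPKM in at least 2 libraries and were tested. The remaining members, PSMA8 (an alpha subunit of the testis) and PSMB11 (the beta subunit of thymic epithelium), were at or under 0.03 FPKM in every library. The proteasome genes together held 0.702% to 0.828% of all FPKM, which summed to between 405937 and 472665 per library. Counts were not used here, so the depth is unknown. Of 8 ductal markers, 7 reached 1 FPKM in every group. The exception, CFTR, the chloride channel of ductal cells, lay between 0.59 and 0.93 FPKM in CFPAC-1 and at or under 0.11 in PANC-1. Of the 7 ductal markers tested, 5 were lower and 1 higher in PANC-1 with DMSO (limma), against 35.2% and 43.4% of all genes. KRT7 lay between 4.39 and 6.15 FPKM in PANC-1 against 271.36 to 330.41 in CFPAC-1, whereas KRT18 was at 1638.36 and 1615.31 FPKM in PANC-1 and 1321.59 and 1340.22 FPKM in CFPAC-1, both with DMSO. The leukocyte genes PTPRC and CD3E were at or under 0.04 FPKM and NKG7 was listed at 0 throughout. CD14, LYZ and CD68 made up nearly all of a summed immune marker level of 77.81 to 84.25 FPKM in CFPAC-1. The sum was 25.29 to 33.15 FPKM in PANC-1, nearly all of it CD68 (23.98 to 32.54). The endothelial marker PECAM1 lay between 18.45 and 21.29 FPKM in CFPAC-1 and at or under 0.08 in PANC-1. The fibroblast marker COL1A1 lay between 3.56 and 5.64 FPKM in CFPAC-1 and between 17.94 and 24.94 in PANC-1. The other endothelial and fibroblast markers were at or under 0.83 FPKM. The part of these markers in the differences between the lines was not tested.

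The interferon-inducible cutting subunits were expressed at several times the level in CFPAC-1 that they had in PANC-1, while their standard counterparts were equal or lower there. PSMB8, which takes the place of PSMB5, was at 119.67 and 131.3 FPKM in the CFPAC-1 DMSO libraries and at 20.08 and 19.34 FPKM in those of PANC-1. PSMB9, which takes the place of PSMB6, was at 78.92 and 78.54 FPKM in CFPAC-1 with DMSO and at 9.1 and 10.6 FPKM in PANC-1. PSMB10, which takes the place of PSMB7, was at 34.09 and 34.96 FPKM against 6.23 and 6.56 FPKM. The lines did not overlap for any of these genes. Most genes share this trait: with DMSO, 40.3% of all genes were lower in both PANC-1 libraries and 49.0% higher. On the log2(FPKM + 1) scale, PANC-1 was lower by 7.37-fold for PSMB9 (log2 difference -2.88, SE 0.13, limma adjusted p = 2.5e-09), by 6.10-fold for PSMB8 (-2.61, SE 0.10, adjusted p = 5.3e-10) and by 4.80-fold for PSMB10 (-2.26, SE 0.13, adjusted p = 1.8e-08).

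The standard cutting subunits differed from one another in this comparison. PSMB5, with chymotrypsin-like activity, was at 91.13 and 94.24 FPKM in CFPAC-1 with DMSO and at 93.25 and 92.48 FPKM in PANC-1, and the lines overlapped (log2 difference 0.00, SE 0.10). PSMB6, with caspase-like activity, was at 42.72 and 44.64 FPKM in CFPAC-1 and at 79.81 and 79.79 FPKM in PANC-1 (0.86, SE 0.07, adjusted p = 6.2e-07). PSMB7, with trypsin-like activity, was at 46.72 and 52.33 FPKM against 106.9 and 106.14 FPKM (1.09, SE 0.07, adjusted p = 3.6e-08). PSMB6 and PSMB7 were thus higher in PANC-1 in all libraries.

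**Figure D1:**
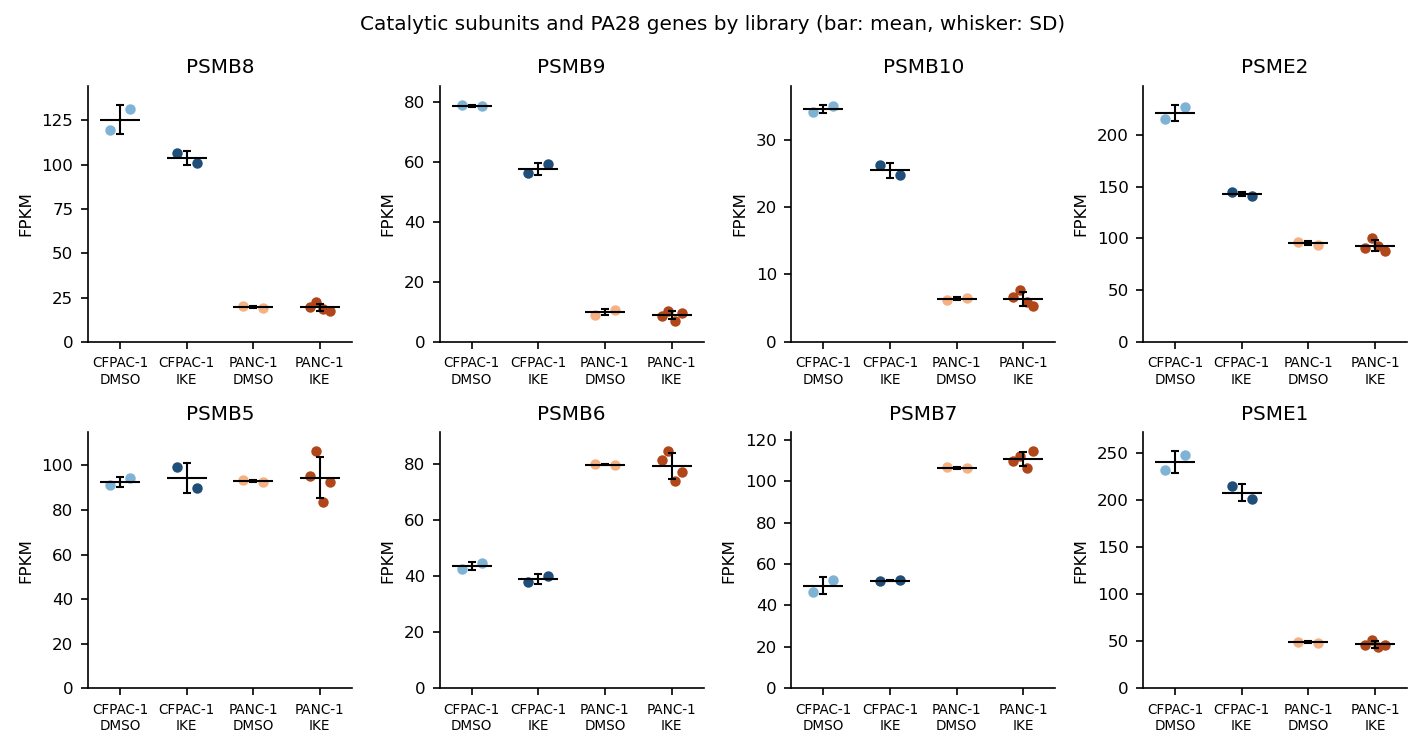
FPKM of the 6 cutting subunits and of PSME1 and PSME2 (y axis) in each library (points) of the 4 groups (x axis), with the group mean (horizontal bar) and SD (whisker). The inducible genes and PSME1 stood far higher in CFPAC-1 than in PANC-1, PSMB6 and PSMB7 stood higher in PANC-1, and PSME2 was lower in the CFPAC-1 IKE libraries than in the CFPAC-1 DMSO libraries.

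Because FPKM is per length, each inducible gene can be expressed as a share of its pair. With DMSO, PSMB8 made up 57.5% ± 1.02 (SD, n = 2) of PSMB8 and PSMB5 in CFPAC-1 and 17.5% ± 0.299 (n = 2) in PANC-1. PSMB9 made up 64.3% ± 0.792 of its pair in CFPAC-1 and 11.0% ± 1.05 in PANC-1, and PSMB10 made up 41.1% ± 1.51 and 5.66% ± 0.222. The 3 inducible genes held 56.2% ± 0.113 of the summed FPKM of the 6 cutting subunits in CFPAC-1, and 11.4% ± 0.256 in PANC-1. Over all 4 CFPAC-1 and 6 PANC-1 libraries, treated and untreated, each pair's share was higher in every CFPAC-1 library (two-sided exact permutation test, p = 0.009524 for each pair, the smallest this design allows, adjusted p = 0.02857 over the 9 tests of shares).

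After IKE, the shares in CFPAC-1 were 52.4% ± 0.805 for PSMB8, 59.7% ± 0.148 for PSMB9 and 32.8% ± 0.983 for PSMB10, each lower in both IKE libraries than in both DMSO libraries. Comparing 2 with 2 libraries cannot reach 0.05, and the exact permutation p was 0.3333 for each pair, the smallest possible (adjusted p = 0.5). The summed FPKM of PSMB8, PSMB9 and PSMB10 was 239 ± 8.57 with DMSO and 187 ± 3.12 with IKE, whereas PSMB5, PSMB6 and PSMB7 summed to 186 ± 7.52 and 185 ± 5.03. In PANC-1 the shares with IKE were 17.1% ± 0.984, 10.0% ± 1.06 and 5.44% ± 0.836 (n = 4), and every pair's IKE libraries overlapped its DMSO libraries (exact permutation p = 0.4 to 0.8, adjusted p = 0.5143 to 0.8, smallest possible p 0.1333).

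**Figure D2:**
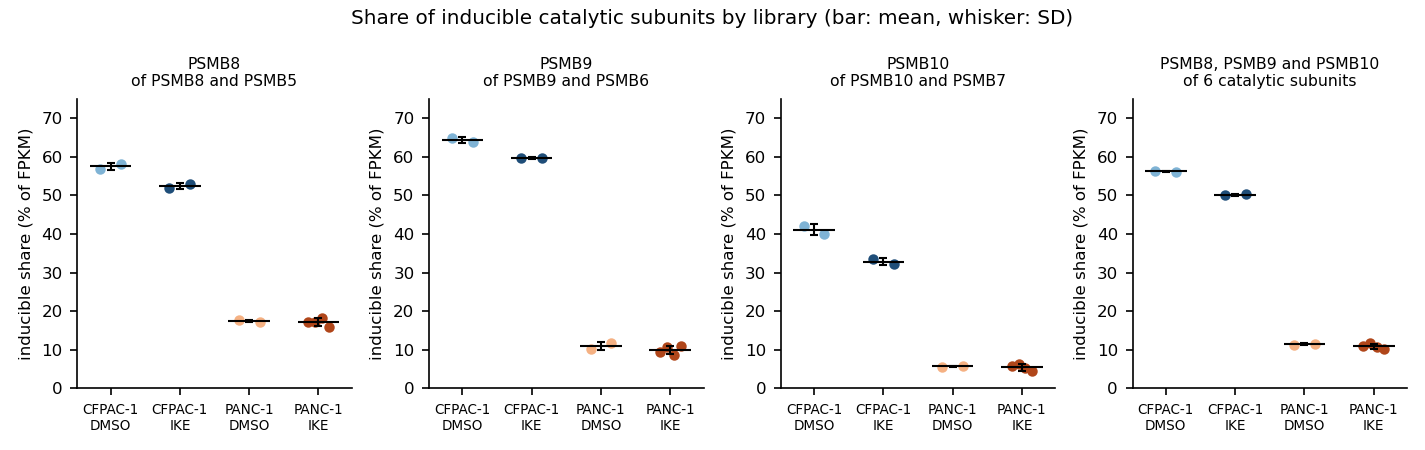
Share of summed FPKM held by each inducible subunit in its pair, and by all 3 among the 6 cutting subunits (y axis, percent), in each library (points) of the 4 groups (x axis), with the mean (bar) and SD (whisker). CFPAC-1 libraries lay above PANC-1 libraries in every panel, and CFPAC-1 IKE libraries lay below CFPAC-1 DMSO libraries.

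PSME2, the beta subunit of the activator PA28, was the proteasome gene that fell with IKE in CFPAC-1. Its FPKM was 215.53 and 226.61 with DMSO and 144.53 and 141.28 with IKE, with no overlap (23.9% of all genes were lower in this way). The log2 difference was -0.63 (SE 0.07, limma adjusted p = 0.00069), and the call was kept in each of the 17 alternatives. PSME1, the alpha subunit of the same ring, was at 232.44 and 248.64 FPKM with DMSO and at 214.98 and 201.54 FPKM with IKE. The 2 IKE libraries were lower than both controls, but the difference did not pass the test (-0.21, SE 0.08, adjusted p = 0.277).

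In PANC-1 both PA28 genes were lower than in CFPAC-1 and overlapped between treatments. PSME2 was at 96.53 and 93.76 FPKM with DMSO and between 87.78 and 100.05 FPKM in the 4 IKE libraries (log2 difference -0.04, SE 0.06, adjusted p = 0.815). PSME1 was at 49.76 and 48.13 FPKM with DMSO and between 43.74 and 51.45 FPKM with IKE (-0.07, SE 0.07, adjusted p = 0.674). Between the DMSO groups, PANC-1 was lower by 4.83-fold for PSME1 (-2.27, SE 0.08, adjusted p = 2.5e-10) and by 2.31-fold for PSME2 (-1.21, SE 0.07, adjusted p = 1.8e-08). The order of the pair therefore differed between the lines: PSME1 had the higher FPKM in both CFPAC-1 DMSO libraries and PSME2 in both PANC-1 DMSO libraries.

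The positions of the inducible genes bear on how well their reads can be told apart. In GENCODE 29 on GRCh38, PSMB8 (ENSG00000204264, chromosome 6, 32840717 to 32844703, minus strand) and PSMB9 (ENSG00000240065, chromosome 6, 32844136 to 32859585, plus strand) overlap each other at their starts within the MHC region, and PSMB9 also overlaps TAP1. PSME1 (ENSG00000092010, chromosome 14, 24136158 to 24138967, plus strand) and PSME2 (ENSG00000100911, chromosome 14, 24143362 to 24147570, minus strand) are neighbours, and PSME2 overlaps RNF31 on the opposite strand. PSMB10 (ENSG00000205220) is at chromosome 16, 67934502 to 67937087, minus strand. Of the 46 genes, 29 overlap another annotated gene and 11 have named pseudogenes. Since the sources used here do not state whether reads were assigned by strand, FPKM of overlapping genes is uncertain.

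The start regions of 4 of these 5 genes hold a short sequence, shown here because it is the core of the interferon-stimulated response element. GAAA followed by any 2 bases and a second GAAA was searched on both strands of the 300 bases around each start (250 before, 50 after) in the RefSeq table of GRCh38.p14, which held 40 of the 46 genes. The starts of that table can lie inside the GENCODE bounds given above, as they do for PSMB8 and PSME2. The sequence occurred in 7 of the 40 (17.5%) and in 4.38% of the 27305 genes of the table. Each window below is 30 bases, 5′ to 3′ on the gene's strand, with the match in capitals; the first 5 carry the same letters GAAAGCGAAA or their reverse complement, and the last 2 carry other letters at the free positions.
PSME2 (chr14:24146619-24146648, minus strand, match 28 to 19 bases before the start): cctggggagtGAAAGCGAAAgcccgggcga
PSMB10 (chr16:67936852-67936881, minus strand, match 21 to 12 bases before the start): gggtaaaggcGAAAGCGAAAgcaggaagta
PSMB8 (chr6:32844032-32844061, minus strand, match on the opposite strand from 4 bases before the start to base 6): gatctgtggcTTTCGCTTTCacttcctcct
PSME1 (chr14:24136189-24136218, plus strand, match on the opposite strand at bases 6 to 15 after the start): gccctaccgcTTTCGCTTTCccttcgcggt
PSMG4 (chr6:3258904-3258933, plus strand, match 33 to 24 bases before the start): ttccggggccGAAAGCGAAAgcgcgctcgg
PSMB4 (chr1:151399495-151399524, plus strand, match 68 to 59 bases before the start): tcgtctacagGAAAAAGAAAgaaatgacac
PSMA4 (chr15:78540155-78540184, plus strand, match 240 to 231 bases before the start): atagtgaagaGAAAATGAAAggagagcgcc

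Among the inducible genes, PSMB8, PSMB10, PSME1 and PSME2 held the letters in this window, and PSMB9 did not. Of the other members with a match, PSMG4, a chaperone of the alpha ring, carried the same letters GAAAGCGAAA and was called lower in PANC-1. PSMB4 and PSMA4 carried other letters at the free positions. PSMB4 was called higher and PSMA4 was not called. The part of these matches in the differences between the lines was not tested. The core of the antioxidant response element, the site type used by NFE2L1 and NFE2L2, was searched as TGACNNNGC and TGAGNNNGC on both strands. One or both occurred in 20 of the 40 genes (50%) and in 33.7% of all genes of the table. CCAAT, on either strand, occurred in 47.5% of the 40 and 39.7% of all. Overlaps between matches of different motifs were not removed. A match describes letters in the window and was not tested as a binding site.

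Beyond PSME2, IKE in CFPAC-1 gave small differences, mostly downward. No proteasome gene rose, against 0.864% of the 13077 genes tested, and 1 of 44 fell, against 0.459%. At an unadjusted p under 0.05, 8 of 44 were lower (18.2%, against 7.1% of all genes) and 0 higher (6.5% of all genes). The 8 were PSMB8, PSMB9, PSMB10, PSME1 and PSME2 with the standard core genes PSMA4, PSMB2 and PSMB3. The fitted difference was below 0 for 38 of 44 (86.4%, against 49.9% of all genes), with a median of -0.10 against 0 for all genes. Both IKE libraries were below both controls for 26 genes (59.1%, against 23.9%) and above them for 1, PSMD4 (23.0% of all genes). PSMD4 is a ubiquitin receptor of the regulatory particle. The share of FPKM held by all proteasome genes was 0.801% in both DMSO libraries and 0.719% and 0.702% in the IKE libraries. In PANC-1 this share was 0.812% and 0.777% with DMSO. With IKE it was 0.828%, 0.798%, 0.780% and 0.822%, so the treatments overlapped there.

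By role, the inducible beta genes had the lowest median difference in CFPAC-1. PSMB9 was at 56.25 and 59.14 FPKM with IKE (-0.44, SE 0.13, adjusted p = 0.156), PSMB10 at 26.22 and 24.68 FPKM (-0.43, SE 0.13, adjusted p = 0.162) and PSMB8 at 106.65 and 100.89 FPKM (-0.27, SE 0.10, adjusted p = 0.255). None passed the test in the fit to all 10 libraries, although all IKE libraries were below the controls. In a fit to the 4 CFPAC-1 libraries alone, PSMB9 (adjusted p = 0.0129) and PSMB10 (adjusted p = 0.0293) passed and 3 members were called lower. The medians of the other roles lay between -0.15 (activators and inhibitor) and -0.08 (standard beta and regulatory non-ATPase subunits). PSMB5 (99.14 and 89.6 FPKM with IKE) and PSMB7 (51.95 and 52.08 FPKM) overlapped their controls, and PSMB6 (37.82 and 40.11 FPKM) was lower in both libraries without passing (-0.16, SE 0.07, adjusted p = 0.370).

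**Figure D3:**
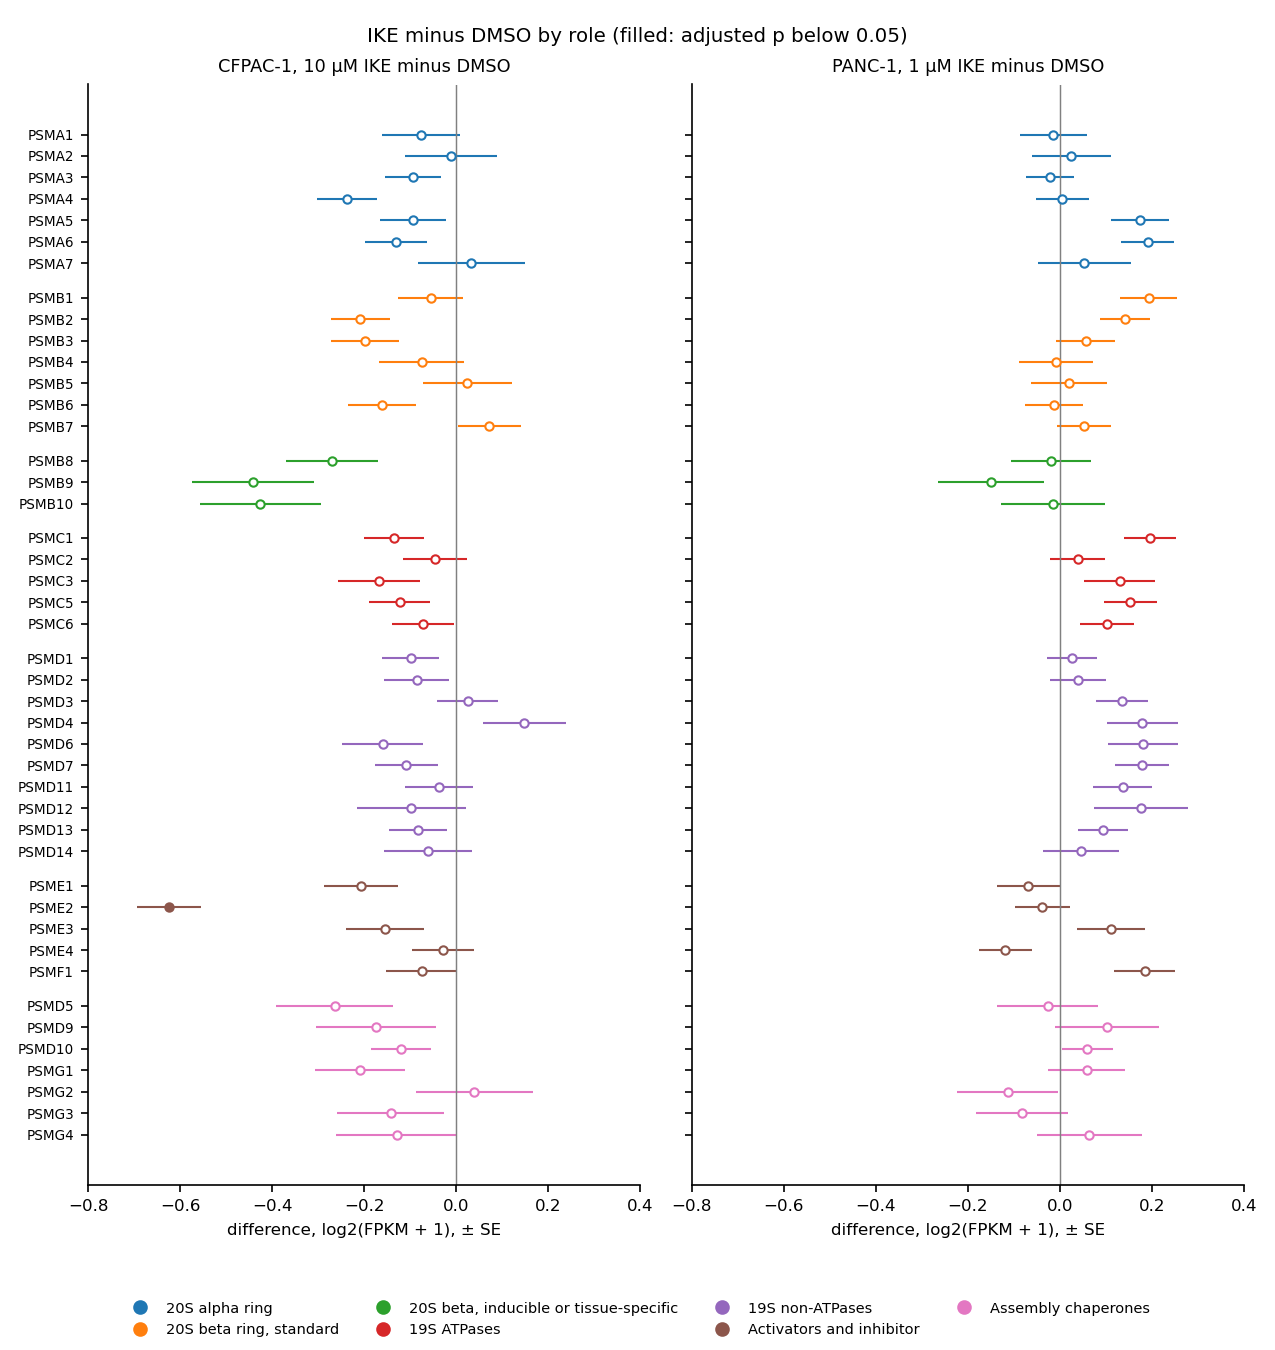
Fitted IKE minus DMSO difference on the log2(FPKM + 1) scale (x axis, ± SE) for the 44 tested genes (y axis), coloured by role, in CFPAC-1 (left) and PANC-1 (right), with filled points for an adjusted p below 0.05. The single filled point is PSME2 in CFPAC-1, 38 of 44 points lie below 0 in CFPAC-1, and 31 of 44 lie above 0 in PANC-1.

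In PANC-1 no proteasome gene passed the test with IKE in either direction (limma; 1.21% of all genes rose and 1.17% fell). At an unadjusted p under 0.05, 11 of 44 were higher (25%, against 8.37% of all genes) and 0 were lower (9.25% of all genes). These were PSMA5, PSMA6, PSMB1, PSMB2, PSMC1, PSMC5, PSMD3, PSMD4, PSMD6, PSMD7 and PSMF1. The fitted difference was above 0 for 31 of 44 (70.5%, against 47.9%), and the median was 0.06 against -0.01 for all genes, with a range of 0.027 to 0.103 over the alternatives. All 4 IKE libraries lay above both controls for 15 genes (34.1%, against 12.3%) and below them for 1, PSME4 (13.6% of all genes).

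Every regulatory particle gene kept by the rule lay on the upward side in PANC-1. The 5 ATPases and 10 non-ATPases all had differences above 0, against 47.9% of all genes. Their medians were 0.13 and 0.14, and none passed the test. PSMC1, an ATPase of the base, had the largest difference (0.20, SE 0.06, adjusted p = 0.0991). PSMC5, another ATPase, was at 80.12 and 87.66 FPKM with DMSO and at 89.49, 96.94, 91.91 and 94.99 FPKM with IKE (0.15, SE 0.06, adjusted p = 0.199), with no overlap. PSMD6, a lid subunit, was at 37.43 and 35.63 FPKM against 40.59, 42.02, 39.28 and 44.41 FPKM (0.18, SE 0.08, adjusted p = 0.249), again with no overlap. PSMB2, the lowest standard beta gene, was at 47.44 and 50.78 FPKM against 54.72, 55.36, 53.9 and 53.08 FPKM (0.14, SE 0.06, adjusted p = 0.211). PSME4, the nuclear activator PA200, was at 60.48 and 60.03 FPKM against 56.51, 54.76, 53.66 and 56.79 FPKM (-0.12, SE 0.06, adjusted p = 0.321).

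Summed over a role, the ATPases were at 347.5 ± 14.2 FPKM with DMSO (SD, n = 2) and 378.9 ± 7.77 with IKE (n = 4) in PANC-1, and at 295 ± 0.693 and 272 ± 2.28 in CFPAC-1 (n = 2 each). The non-ATPases were at 930.2 ± 2.35 and 999.6 ± 20.4 FPKM in PANC-1, and at 483 ± 9.67 and 471 ± 1.05 in CFPAC-1. For both roles the IKE libraries did not overlap the controls, and the differences had opposite signs in the lines, a contrast that was tested gene by gene only. Of single genes, 23.9% were wholly lower with IKE in CFPAC-1 and 12.3% wholly higher in PANC-1. The CFPAC-1 non-ATPase sums were close, at 476.09 FPKM in the lower control and 471.44 in the higher IKE library. Sums were not scaled to total FPKM, which was 432300 and 445656 in PANC-1 with DMSO and 443772 to 472665 with IKE. The inducible beta genes summed to 36.0 ± 0.771 and 34.7 ± 3.91 FPKM in PANC-1 and overlapped.

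**Figure D4:**
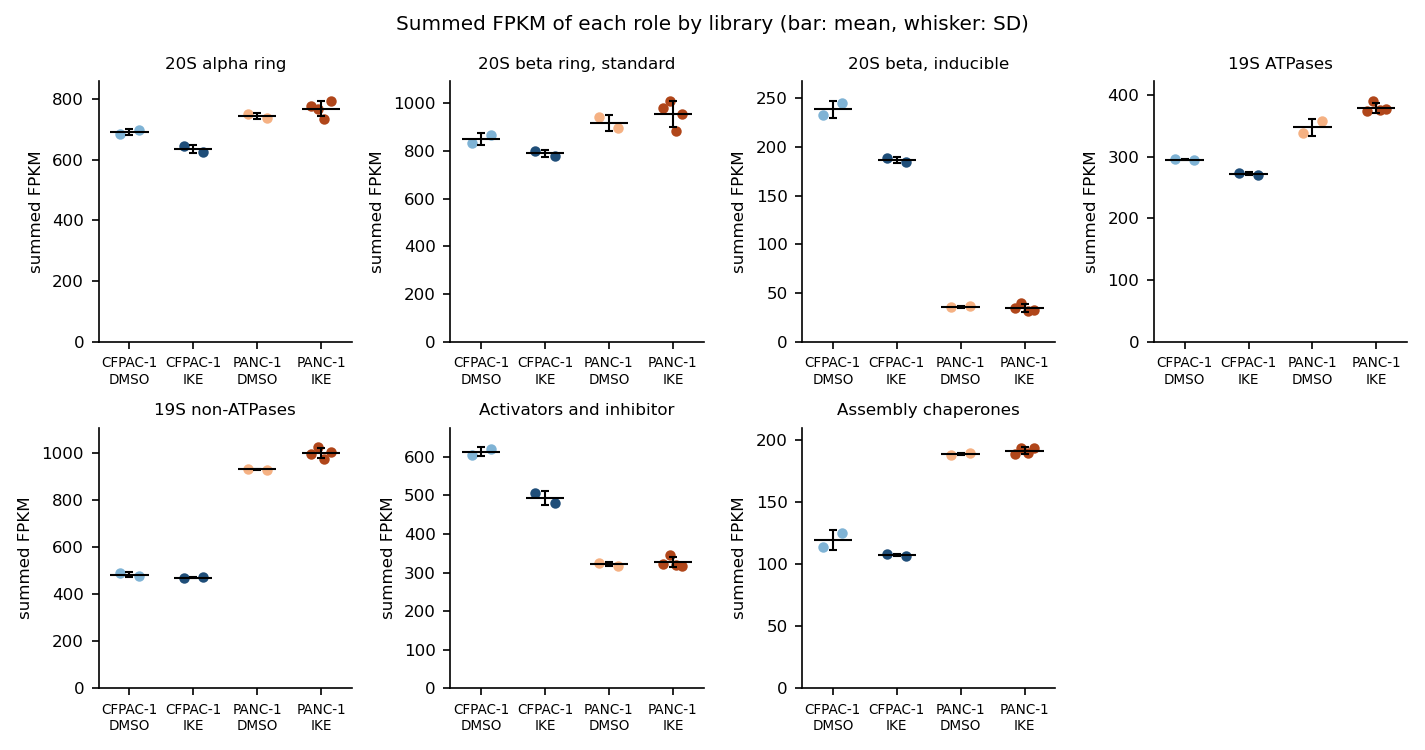
Summed FPKM of the genes of each role (y axis) in each library (points) of the 4 groups (x axis), with the mean (bar) and SD (whisker). The regulatory particle sums are higher with IKE in PANC-1 and lower in CFPAC-1, and the inducible beta genes and activators are highest in CFPAC-1 with DMSO.

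The difference of the IKE response between the lines was tested as an interaction, PANC-1 minus CFPAC-1. PSME2 passed (0.59, SE 0.09, adjusted p = 0.0215), 1 of 44 against 0.107% of all genes, and none passed in the other direction (0.229% of all genes). These shares stand for 14 and 30 genes, which became 0 to 17 and 13 to 46 when 1 library was left out. At an unadjusted p under 0.05, 15 were higher (5.83% of all genes) and 0 lower (6.52%), and 40 of 44 differences were above 0 (48.6% of all genes). The PSME2 call was lost in 8 of 18 alternatives, with adjusted p between 0.0583 and 0.139: when any 1 of the 4 CFPAC-1 or 2 PANC-1 DMSO libraries was left out, when the PANC-1 IKE libraries were limited to replicates 1 and 2, and with a replicate block. The dose was 10 µM in one line and 1 µM in the other, so line and dose cannot be told apart.

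Between the untreated lines most proteasome genes differed, as did most genes. In PANC-1, 23 of 44 were higher (52.3%, against 43.4% of all genes) and 13 lower (29.5%, against 35.2%), and 8 were not called. The median difference was 0.44, against 0.12 for all genes. Both PANC-1 libraries were above both CFPAC-1 libraries for 25 genes (56.8%, against 49.0% of all genes) and below them for 15 (34.1%, against 40.3%). Quantile normalisation put the median of the proteasome genes at 0.35 and median-ratio scaling at 0.31, and across alternatives the median of all genes ran from -0.0016 to 0.161. By role, 7 of 10 regulatory non-ATPases and 6 of 7 chaperones were higher in PANC-1, and all 3 tested inducible beta genes were lower.

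The largest differences upward were in the regulatory particle. PSMD14, the deubiquitinase of the lid, was at 23.8 and 20.22 FPKM in CFPAC-1 with DMSO and at 79.87 and 80.16 FPKM in PANC-1 (log2 difference 1.82, SE 0.10, adjusted p = 7.7e-09). PSMD2, the large scaffold of the base, was at 79.08 and 70.93 FPKM against 240.83 and 227.71 FPKM (1.63, SE 0.07, adjusted p = 1.4e-09) and was the highest regulatory gene in PANC-1. PSMD11, a lid subunit, was at 29.46 and 28.16 FPKM against 87.25 and 93.94 FPKM (1.62, SE 0.07, adjusted p = 2.5e-09). PSMD13, also of the lid, was at 34.17 and 32.7 FPKM against 105.14 and 102.9 FPKM (1.61, SE 0.06, adjusted p = 5.8e-10). PSME4 was at 21.48 and 20.25 FPKM against 60.48 and 60.03 FPKM (1.49, SE 0.07, adjusted p = 2.0e-09), the activator that differed in the direction opposite to PA28. In none of these genes did the lines overlap, where 49.0% of all genes were likewise higher in both PANC-1 DMSO libraries.

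Within each ring some subunits were higher in PANC-1 and others lower. Of the alpha ring genes, PSMA1 (1.43), PSMA2 (1.12) and PSMA7 (0.67) were higher in PANC-1 and PSMA3 (-0.73), PSMA5 (-0.28) and PSMA6 (-0.82) lower, as fitted log2 differences. Of the standard beta genes, PSMB2 (0.53), PSMB4 (0.53), PSMB6 and PSMB7 were higher and PSMB3 (-0.95) lower. Of the ATPases, PSMC2 (0.94) and PSMC3 (0.74) were higher and PSMC1 (-0.28) and PSMC6 (-0.47) lower. PSMD12 (-0.41) was the regulatory non-ATPase that was lower, and PSMG4 (11.33 and 12.58 FPKM in CFPAC-1, 7.78 and 9.69 FPKM in PANC-1; -0.42, SE 0.13, adjusted p = 0.0121) was the chaperone that was lower. Several of the smaller differences depended on 1 library: PSMG4 was not called without the second CFPAC-1 or the first PANC-1 DMSO library (adjusted p = 0.0833 to 0.120), PSMD12 without the first DMSO library of either line (0.0588 to 0.0685) and PSMA5 without the first PANC-1 DMSO library (0.0508). PSMD9 (0.34), a chaperone of the base, was called higher as deposited and was not called under either scaling (adjusted p up to 0.213 over its alternatives), while PSMD3 and PSME3 were called lower under both.

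**Figure D5:**
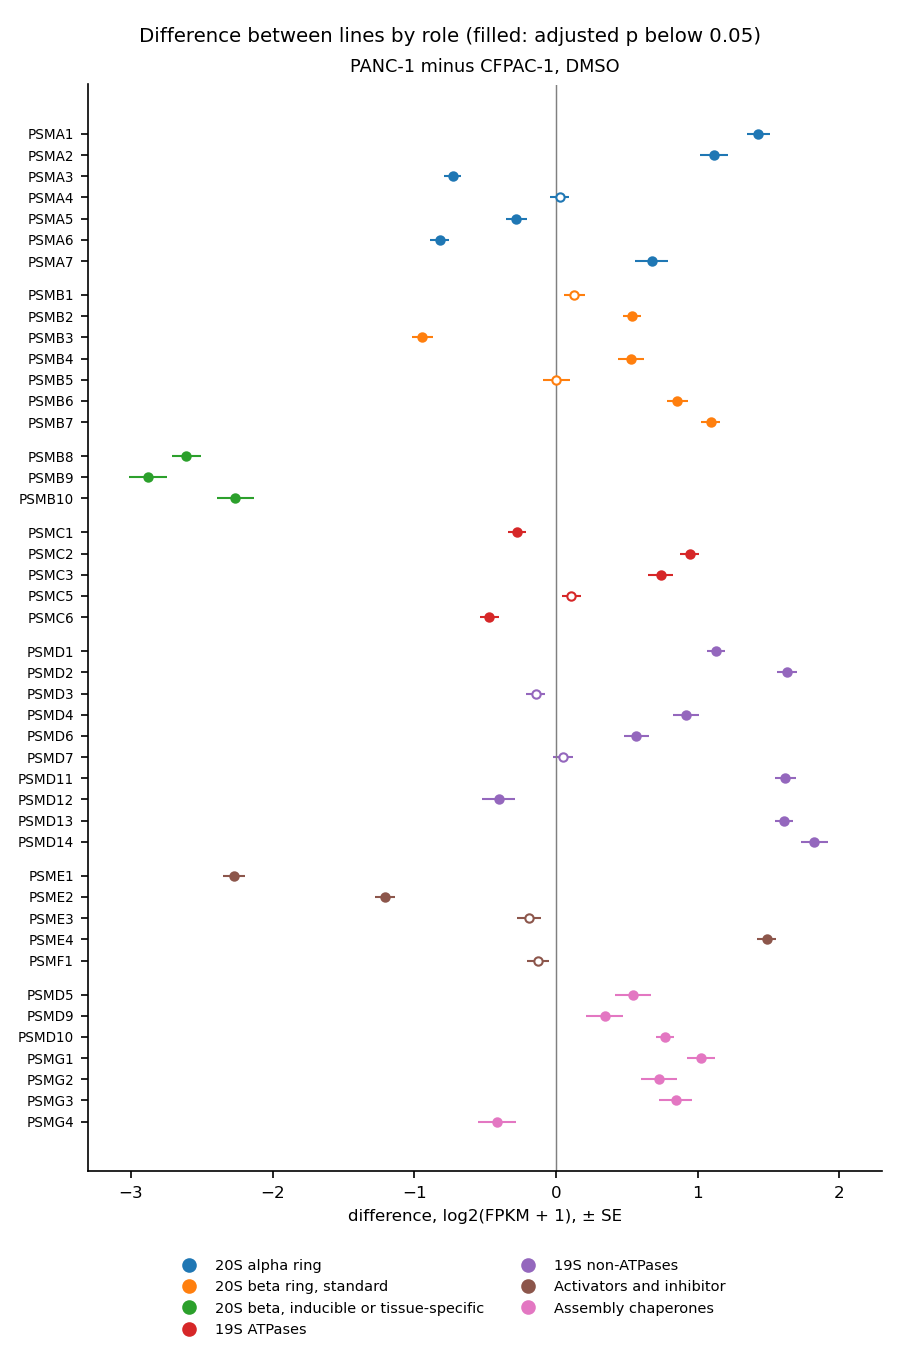
Fitted PANC-1 minus CFPAC-1 difference with DMSO on the log2(FPKM + 1) scale (x axis, ± SE) for the 44 tested genes (y axis), coloured by role, with filled points for an adjusted p below 0.05. PSMB8, PSMB9, PSMB10, PSME1 and PSME2 lie farthest to the left, and PSMD14, PSMD2, PSMD11 and PSMD13 farthest to the right.

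Within a group, the genes of the core barrel, whose positions are filled in equal numbers, spanned a range of FPKM. PSMB5, PSMB6 and PSMB7 share their positions with PSMB8, PSMB9 and PSMB10, so equal numbers need not hold for them. Among the 14 standard alpha and beta genes, the highest was 8.94 times the lowest in CFPAC-1 with DMSO (PSMB3 at 291 ± 10.5 FPKM, PSMA2 at 32.6 ± 3.71) and 8.75 times with IKE. In PANC-1 it was 7.05 times with DMSO (PSMB4 at 279.5 ± 22.3, PSMA5 at 39.6 ± 2.83) and 6.21 times with IKE. PSMA4 was the highest alpha gene in all groups, at 201.39 and 188.17 FPKM in CFPAC-1 with DMSO, 167.51 and 162.26 with IKE, 199.49 and 196.89 in PANC-1 with DMSO and 188.2 to 207.95 with IKE. It was the standard gene with the smallest unadjusted p in CFPAC-1 with IKE (-0.24, SE 0.07, adjusted p = 0.119) and did not differ between the untreated lines by more than its error (0.03, SE 0.07). PSMC6 was the lowest ATPase in PANC-1 (37.88 and 35.52 FPKM with DMSO), and PSMD10, a chaperone also known as gankyrin, was the highest chaperone in all groups (31.63 and 34.21 FPKM in CFPAC-1, 56.4 and 57 in PANC-1, with DMSO).

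The list of class I peptide supply and interferon control, 9 genes, had no call with IKE in either line by limma, and at an unadjusted p under 0.05 it had 2 lower and 0 higher genes in each line (7.1% of all genes were lower in CFPAC-1 and 9.25% in PANC-1). In CFPAC-1 all 9 differences were below 0 (median -0.18), against 49.9% of all genes. In PANC-1, 7 of 9 were below 0 and 2 above (median -0.05), where 47.9% of all genes were above 0. The aminopeptidase ERAP2 was at 13.31 and 14.27 FPKM with DMSO and at 8.89 and 9.77 FPKM with IKE in CFPAC-1 (-0.52, SE 0.12, adjusted p = 0.0582). Between the untreated lines, 7 of 9 were lower in PANC-1 and none higher, where 35.2% of all genes were lower and 43.4% higher. The transporter TAP1, which carries peptides into the endoplasmic reticulum, was at 60.79 and 68.39 FPKM in CFPAC-1 and 19.01 and 17.7 FPKM in PANC-1 (-1.76, SE 0.11, adjusted p = 3.5e-08). B2M, the light chain of class I molecules, was at 2752.05 and 3060.55 FPKM against 761.5 and 778.39 FPKM (-1.91, SE 0.10, adjusted p = 1.1e-08). NLRC5, the transactivator of class I genes, was lower as well (-2.31, SE 0.12, adjusted p = 9.6e-09).

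Of 9 genes that control proteasome gene expression, 1 rose with IKE in PANC-1 by limma (1.21% of all genes rose) and none passed in CFPAC-1. At an unadjusted p under 0.05, 3 were higher and 0 lower in each line. Of all genes, 6.5% were higher and 7.1% lower in CFPAC-1, and 8.37% and 9.25% in PANC-1. MAFF, a small MAF partner of the NFE2 factors, was at 1.22 and 1.46 FPKM with DMSO and at 4.56, 2.4, 2.53 and 4.45 FPKM with IKE in PANC-1 (0.90, SE 0.20, adjusted p = 0.0419). The call was lost in 12 of 19 alternatives (adjusted p up to 0.275), among them those that left out any 1 of the 4 CFPAC-1 libraries, either PANC-1 DMSO library, or PANC-1 IKE replicate 1 or 4. NFE2L1 lay between 122.56 and 157.25 FPKM in all libraries and was not called in any comparison. Between the untreated lines 6 of the 9 were higher in PANC-1 (43.4% of all genes), among them the segregase VCP (1.71, SE 0.09, adjusted p = 1.1e-08), MAFK (1.87, SE 0.11, adjusted p = 1.7e-08) and MAFG (1.06, SE 0.09, adjusted p = 7.2e-07), and 2 were lower (35.2% of all genes), among them MAFF (-2.18, SE 0.23, adjusted p = 3.8e-06).

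Of 13 genes of ubiquitin supply and shuttling, none passed the limma test with IKE in CFPAC-1. There, 1 was higher and 0 lower at an unadjusted p under 0.05 (6.5% and 7.1% of all genes). Between the untreated lines 7 of the 13 were higher in PANC-1, among them UBQLN4, UBQLN1, UBA1 and UBB, and 1 lower, against 43.4% and 35.2% of all genes, so the share higher was near that of all genes. Of 10 proteasome-associated and assembly genes, none was called with IKE in either line by limma. At an unadjusted p under 0.05, 1 was higher and 2 lower in CFPAC-1 (6.5% and 7.1% of all genes). In PANC-1, 4 were higher and 0 lower (8.37% and 9.25% of all genes). Between the untreated lines, 8 of the 10 were higher and 1 lower in PANC-1, against 43.4% and 35.2% of all genes. The deubiquitinase USP14 was at 13.23 and 12.38 FPKM in CFPAC-1 and 52.56 and 49.51 FPKM in PANC-1 (1.91, SE 0.09, adjusted p = 3.2e-09), and POMP, the maturation factor of the core, was at 25.48 and 27.07 against 56.39 and 54.95 FPKM (1.06, SE 0.07, adjusted p = 9.5e-08).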

How the data were processed

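Total RNA of 10 libraries, depleted of rRNA and made into strand-keeping libraries per the labels' protocols, was measured by sequencing. The values are the authors' FPKM, deposited as 1 table of 20289 Ensembl genes. Its 9 empty columns were not used. Per the submitters' processing notes, the build was GRCh38 and the tools included HISAT2 2.1.0 and Bowtie2 2.2.8, fastp 0.18.0, StringTie 1.3.4 and DESeq2. What each tool did, which annotation was used and whether strand was used is not stated. Depth is unknown, and no interval for counting error can be given.

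Libraries were grouped by line and treatment from the labels. The 13077 genes that reached 1 FPKM in 2 or more libraries were transformed to log2(FPKM + 1), which understates changes of low genes. A linear model of group means over all libraries, with a variance trend, was fitted in limma 3.58.1 under R 4.3.3 (6 residual and 5.1 prior degrees of freedom), two-sided, with Benjamini-Hochberg adjustment over all tested genes and a threshold of 0.05. The procedure was tested on simulated data. Shares of the cutting subunits were compared by exact permutation tests. The IKE comparisons and the comparison of untreated lines share the DMSO libraries.

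Genes named by rule were the cutting subunits, PSME1 and PSME2, and those called with IKE or in the interaction. The rule also took the 5 largest differences in each direction between lines, and the highest and lowest gene of each role. For several of these genes, values are given for part of the libraries or as group means only. Related lists contributed up to 4 called genes per comparison. Other named genes were chosen after their values were seen. Some genes of the related lists are not reported here. The members and lists were chosen with earlier results of these data known. Alternatives were another scaling (quantile or median-ratio), no filter or a 5 FPKM filter, a pseudocount of 0.1, a replicate block, only the groups compared, subsets of the PANC-1 IKE libraries, and each library left out.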

Additional observations from a re-analysis of the deposited data

Results flagged for a closer look

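In 3 genes 1 of the 4 PANC-1 IKE libraries stood apart from the rest, with a gap to its nearest neighbour above the 95% critical value of Dixon's test for 4 samples. PSMD12, a lid subunit, was at 29.39 FPKM in replicate 2 and at 36.64, 36.76 and 36.41 FPKM in the others. PSMD13, also of the lid, was at 117 FPKM in replicate 2 and at 109.03, 108.59 and 109.69 FPKM in the others. PSMA3, an alpha subunit, was at 75.04 FPKM in replicate 3 and at 79.99, 79.99 and 80.81 FPKM in the others. The check covered 48 sets of values, and chance alone flags about 1 in 20.

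The IKE response of PSME2 differed between the lines by 0.59 on the log2 scale in the interaction test (limma adjusted p = 0.0215), with line and dose changing together.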

How the results depend on the processing

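The PSME2 decrease in CFPAC-1, the absence of calls in PANC-1 with IKE, and the lower levels of PSMB8, PSMB9, PSMB10, PSME1 and PSME2 in PANC-1 kept their calls in every alternative run, and no named result reversed past the threshold. With only the CFPAC-1 libraries in the fit, 3 members were called lower there. The median of the members in PANC-1 with IKE was 0.10 with replicates 1 and 2 alone and 0.027 with quantile normalisation. In the interaction, 0 members were called with those replicates, the leave-one-out count ran from 0 to 1, and the median was 0.16 with replicates 3 and 4 alone. Between untreated lines the median was 0.35 with quantile normalisation, 0.31 with median-ratio scaling, 0.24 without a filter and 0.35 to 0.45 with 1 library left out. With the replicate block, the median in PANC-1 with IKE was 0.10 and 0 members were called in the interaction, and MAFF lost its call. The block fits PANC-1 IKE replicates 3 and 4 exactly, so its differences rest on replicates 1 and 2. The labels do not say that replicate numbers pair libraries, and same-numbered libraries correlated between -0.027 and 0.118 in their deviations. Over all genes, leaving out 1 library moved the calls in CFPAC-1 with IKE from 60 lower to between 16 and 104, and in PANC-1 from 158 higher to between 35 and 206 and from 153 lower to between 7 and 298. FPKM without counts sets no floor for low genes such as PSMA8 and PSMB11.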
